A study of Mus musculus with 6 samples.

Results

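The genes described here build the elastic fiber, the extracellular structure that lets lung tissue recoil after each breath. The 10 genes were taken by symbol from the deposited count table of 56262 gene identifiers: Eln, Fbn1, Mfap2, Mfap4, Fbln5, Efemp2, Ltbp4, Emilin1, Lox and Loxl1. All 10 were detected well enough to be tested, among 17120 tested genes. RNA of lung tissue was sequenced from 3 R/R and 3 WT mice at 8 weeks of age, all untreated. R/R mice carry the K329R and K332R substitutions of RBM47, an RNA-binding protein, on both alleles. The substitutions were introduced by CRISPR on the C57BL/6 background, and the WT mice were littermates without them. The change is in the germline, so every cell type of the R/R lung carries it, and RNA of lung tissue mixes these cell types. The question addressed was how RNA levels differ between R/R and WT lungs at baseline.

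An elastic fiber has a core of cross-linked elastin and a sheath of fibrillin microfibrils. Cells secrete soluble tropoelastin, fibulins carry it onto the microfibrils, and lysyl oxidases join the molecules into an insoluble polymer. In the lung the fibers run through alveolar walls, airways and vessels, and smooth muscle cells, myofibroblasts, other fibroblasts, endothelial cells and mesothelial cells can all produce parts of them. Most elastin is laid down while alveoli form, and the polymer is then very long-lived, so RNA levels in adult lung do not measure the amount of fiber.

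Library totals ranged from 16501092 to 18141067 counts, so that 3 counts corresponded to 0.165 to 0.182 CPM, the count scaled to a common library size. The library WT 3 stood closer to the R/R libraries than the other WT libraries did. Divided by its degrees of freedom, the chi-square of 2 count profiles was 7.20 to 8.21 for WT 3 against the R/R lungs. It was 13.0 to 14.3 for WT 1 and WT 2 against them, and 5.22 to 8.31 within a genotype. WT 3 gave 8.31 against WT 1 and 7.91 against WT 2, so it stood no closer to its own genotype than to R/R. WT 1 against WT 2 gave 5.22. For the 10 elastic fiber genes, values without WT 3 are therefore given below. Leaving out the WT lung nearest to R/R widens the difference for many genes by construction, so these values add no support. Over all tested genes, 621 were called without WT 3 and 300 with all 6 lungs. Rbm47 itself was at 32.7 to 34.1 CPM in R/R lungs and 28.8 to 34.4 CPM in WT lungs (adjusted p = 0.66). Counts per gene do not show the substituted codons. Sftpc, the surfactant gene of alveolar type 2 cells that defines lung tissue, was at 10010 to 13790 CPM over the 6 lungs.

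Elastic fiber genes were lower in R/R lungs for elastin itself and for 3 genes of the microfibril. Mfap4 was at 37.0% and Eln at 41.9% of the WT level, while Fbn1 and Mfap2 were both at about 74% (74.5% and 74.3%). The adaptors that assemble the fiber, Fbln5, Efemp2, Ltbp4 and Emilin1, did not pass the test, and neither did the cross-linking enzymes Lox and Loxl1. With a Benjamini-Hochberg adjusted p under 0.05 in edgeR's quasi-likelihood test as the threshold, 4 of 10 genes were lower. Over all tested genes, 1.75% were called, 1.10% as lower and 0.648% as higher in R/R. None of the 10 was called higher by edgeR, DESeq2 or limma-voom. At an unadjusted edgeR p under 0.05, 6 were lower and 0 higher. The share of all tested genes at this unadjusted cut was not counted, so counts at it, here and below, are descriptive only. Of the 10 genes, 9 had a negative log2 fold change (R/R over WT), and their median was -0.36, beside 0.005 for all tested genes. In 5 of the 10 every R/R lung lay below every WT lung, which was so for 9.50% of tested genes. In 0 of the 10 did every R/R lung lie above every WT lung, as 9.17% of tested genes did. In RNA of lung tissue, fewer cells that make a transcript and less of it per cell cannot be told apart.

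**Figure D1:**
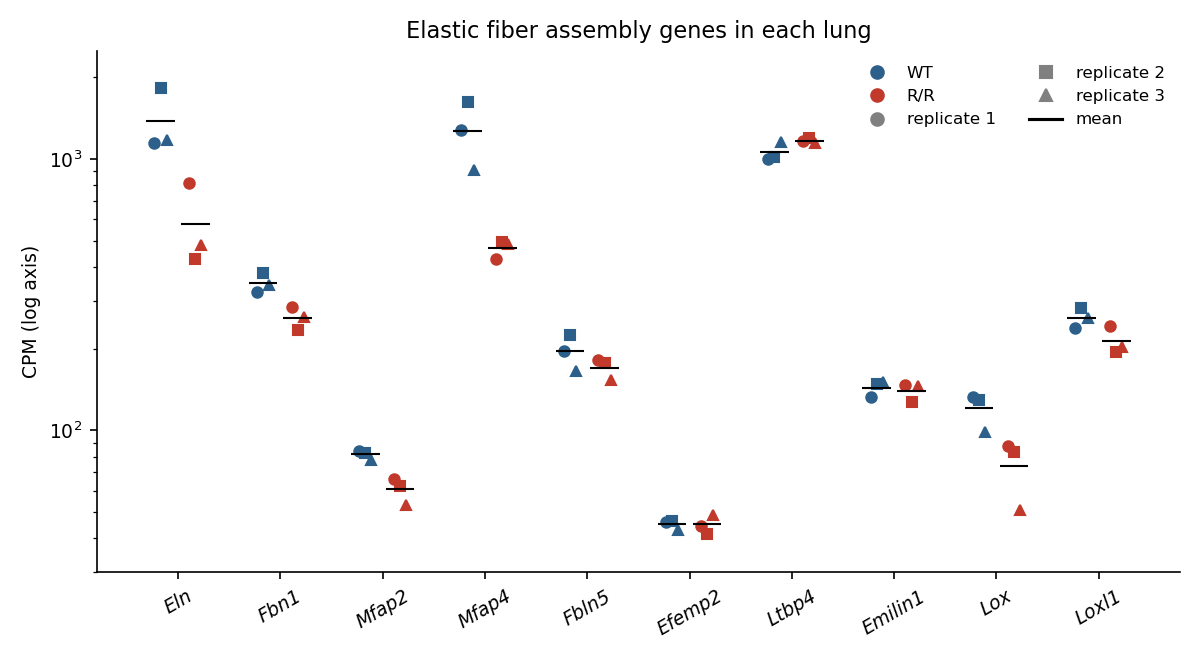
Level of each gene in each lung in CPM on a log axis, with WT in blue, R/R in red, replicates as symbols and the mean as a bar. For Eln, Fbn1, Mfap2, Mfap4 and Lox all R/R points sit below all WT points, and for the other 5 genes the genotypes overlap.

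Eln encodes tropoelastin, the soluble precursor of the elastic core (ENSMUSG00000029675.12, GRCm38, chromosome 5, 134702593 to 134747323, minus strand). Its level was 817, 427 and 483 CPM in the R/R lungs and 1140, 1820 and 1170 CPM in the WT lungs. R/R 1 was well above the other R/R lungs, WT 2 was well above the other WT lungs, and the genotypes did not overlap. The means were 576 ± 211 and 1376 ± 384 CPM (SD, n = 3 lungs each). The log2 fold change was -1.26 (SE 0.23, 95% interval -1.75 to -0.76), a 2.39-fold lower level, with an adjusted p of 0.0235 (edgeR quasi-likelihood test). The direction held with each lung left out, from -1.60 to -1.0, but the adjusted p rose to 0.108 without R/R 2, 0.0866 without R/R 3 and 0.0566 without WT 2. It was 0.00834 without WT 3.

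Mfap4 encodes microfibril-associated protein 4, a secreted glycoprotein that binds tropoelastin and fibrillin and is made by smooth muscle cells and fibroblasts (ENSMUSG00000042436.12, chromosome 11, 61485431 to 61488900, plus strand). It was at 429, 494 and 485 CPM in R/R lungs and at 1274, 1620 and 913 CPM in WT lungs. The R/R lungs lay close together, whereas WT 2 was the highest and WT 3 the lowest of a wide WT range. Mean levels were 469 ± 35.2 CPM in R/R and 1269 ± 353 CPM in WT (SD, n = 3 lungs each). The log2 fold change of -1.44 (SE 0.16, 95% interval -1.78 to -1.09) was the largest of the 10 genes in size, a 2.71-fold lower level with an adjusted p of 0.00193 by edgeR. Mfap4 was called under each of the 6 fits with 1 lung left out, with log2 fold changes of -1.63 (without WT 3) to -1.22 (without WT 2), and was the only one of the 10 genes for which this held. Mapk7, a kinase gene on the opposite strand, shares 4.63% of the exon bases of Mfap4, and its own log2 fold change was -0.21 (adjusted p = 0.334).

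Fbn1 encodes fibrillin-1, the backbone of the microfibril (ENSMUSG00000027204.13, chromosome 2, 125300594 to 125507993, minus strand). The R/R lungs had 284, 234 and 261 CPM and the WT lungs 323, 380 and 342 CPM. The genotypes did not overlap, and the spread within each was small. The log2 fold change was -0.43 (SE 0.08), with an adjusted p of 0.0308 by edgeR. The predicted gene Gm9913 lies on the opposite strand across 20.1% of the exon bases of Fbn1. It received 1 to 10 counts in each lung, and read pairs that touch both genes were not counted for either. With a lung left out, the adjusted p of Fbn1 was 0.122 without R/R 2, 0.0810 without R/R 3, 0.0504 without WT 1, 0.104 without WT 2 and 0.0186 without WT 3.

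Mfap2 encodes MAGP-1, a small glycoprotein attached to fibrillin microfibrils (ENSMUSG00000060572.17, chromosome 4, 141010418 to 141015984, plus strand). Its level was 66.2, 62.4 and 53.1 CPM in R/R lungs and 84.2, 82.6 and 77.9 CPM in WT lungs. All R/R lungs were below all WT lungs, with R/R 3 the lowest. The log2 fold change was -0.43 (SE 0.08) and the adjusted p 0.0269 by edgeR. The adjusted p was 0.0827 without R/R 2, 0.0640 without R/R 3, 0.107 without WT 1, 0.0854 without WT 2 and 0.0147 without WT 3, with log2 fold changes of -0.50 to -0.34. For Eln, Mfap4, Fbn1 and Mfap2 the exact two-sided permutation p on log2 CPM was 0.1, the smallest that 3 lungs against 3 allow.

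**Figure D2:**
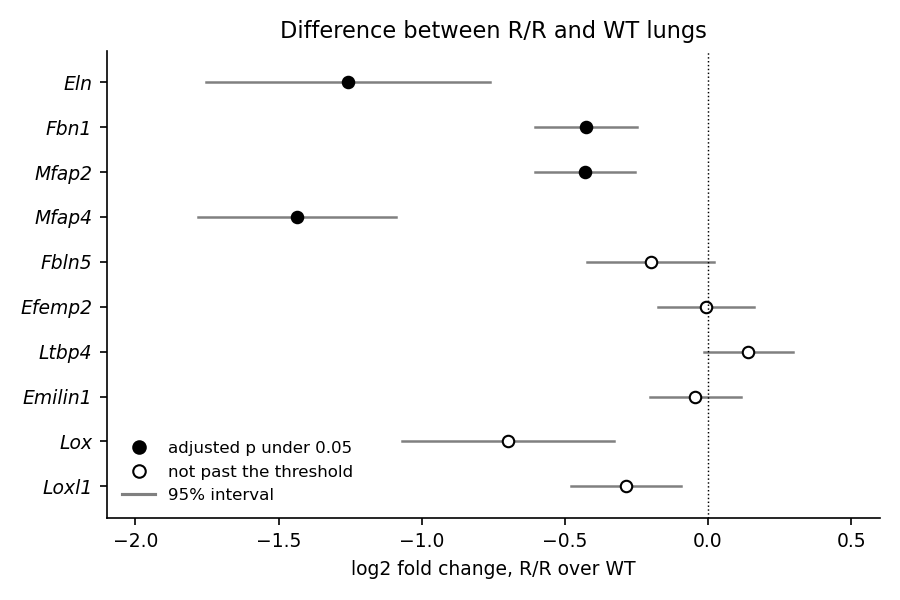
Log2 fold change of each gene, R/R over WT, with its 95% interval from the edgeR fit. Filled points, adjusted p under 0.05, are Eln, Fbn1, Mfap2 and Mfap4, and the intervals of Fbln5, Efemp2, Ltbp4 and Emilin1 span 0.

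The adaptors bring tropoelastin, microfibrils and cross-linking enzymes together. Fbln5 encodes fibulin-5, which tethers tropoelastin to microfibrils and cells, and was at 181, 176 and 153 CPM in R/R and 196, 225 and 165 CPM in WT lungs. The genotypes overlapped, and the log2 fold change was -0.20 (95% interval -0.42 to 0.02, adjusted p = 0.411). It was -0.31 without WT 3 (adjusted p = 0.0750), -0.13 without R/R 3 and -0.09 without WT 2. Efemp2 encodes fibulin-4, which binds lysyl oxidase and directs it to tropoelastin. It had 44.6, 41.5 and 48.9 CPM in R/R and 46.1, 46.5 and 43.1 CPM in WT lungs. Its log2 fold change was -0.01 (95% interval -0.17 to 0.16, adjusted p = 0.981), and its sign depended on the lungs used. Emilin1, a glycoprotein at the interface of elastin and microfibrils, was at 146, 127 and 145 CPM in R/R and 132, 148 and 151 CPM in WT lungs. Its log2 fold change was -0.04 (95% interval -0.20 to 0.12, adjusted p = 0.853), again with overlapping groups. Ltbp4 encodes latent TGF-β binding protein 4, which sits on microfibrils and helps fibulin-5 deposit elastin. It had 1161, 1193 and 1144 CPM in R/R and 1002, 1019 and 1151 CPM in WT lungs, where WT 3 lay within the R/R range. It was the only one of the 10 genes with a positive log2 fold change, 0.14 (95% interval -0.02 to 0.30, adjusted p = 0.411). Without WT 3 the log2 fold changes were -0.04 for Efemp2, -0.01 for Emilin1 and 0.20 for Ltbp4, with adjusted p of 0.861, 0.971 and 0.138. With all 6 lungs, the intervals of these 4 genes leave out a loss as large as that of Eln or Mfap4, and that of Fbln5 ends close to the value of Fbn1.

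Lox and Loxl1 encode lysyl oxidases, the copper enzymes that cross-link elastin, and Lox also cross-links collagen. Lox was at 87.9, 83.5 and 51.1 CPM in R/R lungs and at 133, 130 and 98.9 CPM in WT lungs. The genotypes did not overlap, with R/R 3 far below the other R/R lungs and WT 3 the lowest WT lung. The log2 fold change was -0.70 (SE 0.17, 95% interval -1.07 to -0.33), larger in size than that of Fbn1, but the adjusted p of 0.0668 by edgeR missed the threshold. Without WT 3 it was 0.0164. Loxl1, the paralog that acts mainly on elastin, had 242, 194 and 203 CPM in R/R and 239, 281 and 258 CPM in WT lungs. R/R 1 lay within the WT range, and the log2 fold change was -0.29 (SE 0.09, adjusted p = 0.146). It passed the threshold when R/R 1 was left out (adjusted p = 0.0467) and in DESeq2 with all 6 lungs (0.0418), and had an adjusted p of 0.142 without WT 3.

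Individual lungs did not shift all of the genes equally. WT 2 had the highest level of the 6 lungs for 5 genes, Eln, Fbn1, Mfap4, Fbln5 and Loxl1. R/R 2 had the lowest for 5 genes, Eln, Fbn1, Efemp2, Emilin1 and Loxl1. R/R 1 was the highest R/R lung for 7 of the 10 genes, yet it had the lowest Mfap4 of all lungs. The spread between lungs was widest for Eln, with a coefficient of variation of 36.6% in R/R and 27.9% in WT, followed by Mfap4 in WT (27.9%) and Lox in R/R (27.1%).

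**Figure D3:**
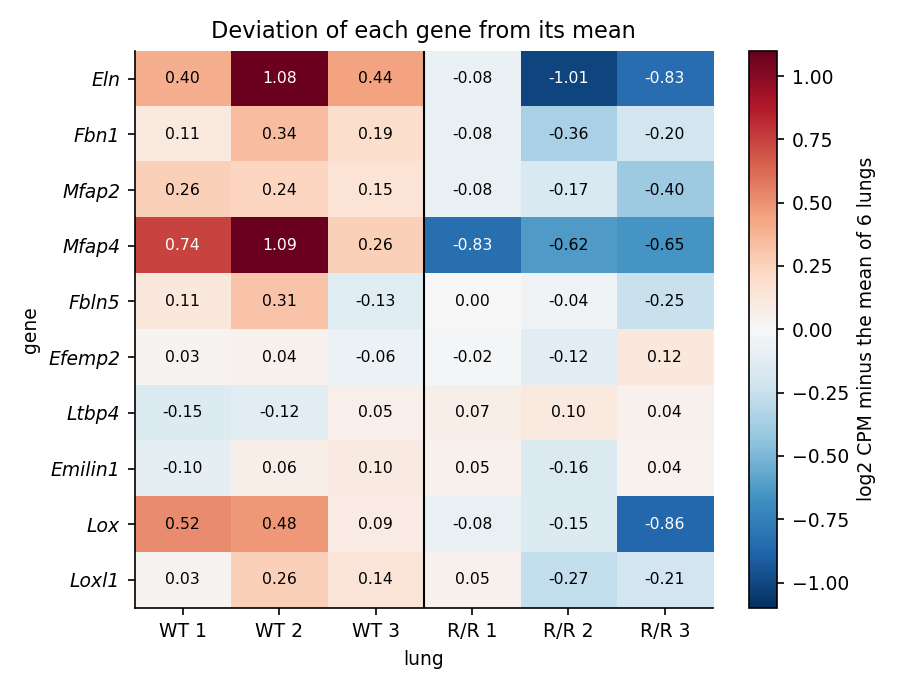
Log2 CPM of each gene in each lung minus its mean over the 6 lungs, with red above and blue below the mean. Eln ranges from -1.01 in R/R 2 to 1.08 in WT 2 and Mfap4 from -0.83 in R/R 1 to 1.09 in WT 2, whereas Efemp2 stays between -0.12 and 0.12.

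**Figure D4:**
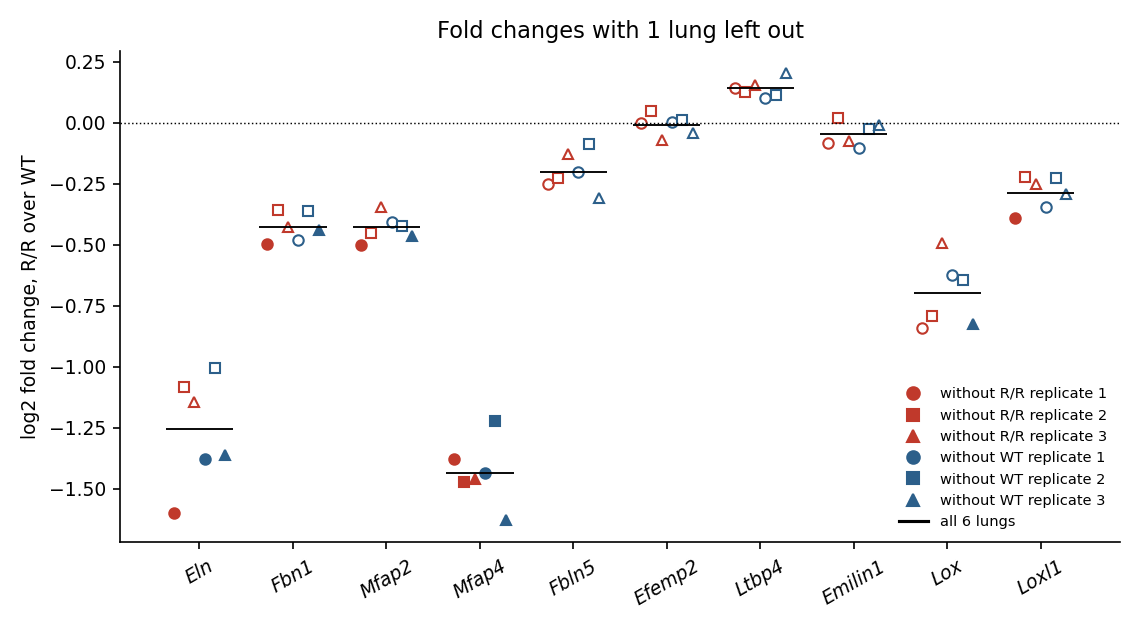
Log2 fold change, R/R over WT, of each gene with 1 lung left out, in red for R/R and blue for WT lungs, filled where the adjusted p was under 0.05. The black bar is the value with all 6 lungs. Mfap4 is filled at each of its 6 points, Eln at 3, Fbn1 and Mfap2 at 2, and Lox and Loxl1 at 1.

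Levels can be compared roughly between genes once they are divided by exon length, as RPKM, the CPM per kilobase of exon. This length joins all annotated exons of a gene and can exceed that of a single transcript, so orders and ratios between genes are approximate. For Fbn1 it includes the 20.1% of exon bases shared with Gm9913, where read pairs were not counted. In WT lungs the order of mean RPKM was Mfap4 (660), Eln (170), Ltbp4 (164), Loxl1 (78.7), Mfap2 (67.4), Emilin1 (29.1), Fbn1 (28.7), Fbln5 (28.3), Lox (25.2) and Efemp2 (11.9). The ranges of Eln and Ltbp4, and those of each neighbouring pair from Emilin1 to Lox, overlapped. In R/R lungs the order was Mfap4 (244), Ltbp4 (180), Eln (71.1), Loxl1 (64.5), Mfap2 (50.0), Emilin1 (28.3), Fbln5 (24.6), Fbn1 (21.4), Lox (15.5) and Efemp2 (11.9). Here the ranges overlapped for Eln and Loxl1, Emilin1 and Fbln5, Fbln5 and Fbn1, and Lox and Efemp2.

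The make-up of the summed RPKM of the 10 genes also differed. The sum was 741, 704 and 691 RPKM in R/R lungs and 1222, 1512 and 1055 RPKM in WT lungs. Mfap4 supplied 30.1% to 36.5% of it in R/R and 45.0% to 55.7% in WT lungs, and Ltbp4 24.2% to 26.2% in R/R and 10.4% to 16.9% in WT lungs. The share of Eln overlapped between the genotypes. Elastin per fibrillin-1, the ratio of core to sheath RNA in RPKM, was 4.32, 2.74 and 2.77 in R/R and 5.28, 7.17 and 5.12 in WT lungs. Mfap4 per Mfap2 was 4.08, 4.99 and 5.75 in R/R and 9.53, 12.4 and 7.39 in WT lungs. Neither of these 2 ratios overlapped between the genotypes, whereas Lox per Loxl1, Fbln5 per Efemp2 and Eln per Mfap4 did.

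Outside the 10 elastic fiber genes, the genes whose log2 CPM followed Eln most closely over the 6 lungs, among 9147 genes whose mean log2 CPM reached 4, were Rps4l, Cd34, Amph, Fstl1 and C9orf72, with Pearson r of 0.983 to 0.987. None of these 5 passed the edgeR test, with adjusted p from 0.113 to 0.517, and their log2 fold changes were -0.25 to -0.14. Of the other elastic fiber genes, Fbn1 (r = 0.983) and Loxl1 (0.974) followed Eln most closely, then Mfap2 (0.888), Mfap4 (0.863) and Lox (0.808). Efemp2 (0.161) and Ltbp4 (-0.737) stood at the other end. These coefficients describe 6 points that share genotype and library scaling, and no p is attached to them.

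Promoter sequences of Mfap2, which was lower in R/R, and of Fbln5 and Efemp2, which did not pass the test, are shown to set a lowered gene beside adaptor genes, with 1 window each. They come from RefSeq (GRCm38.p6), 5′ to 3′ on the strand of the gene, and end where the first annotated exon begins or earlier. Capitals mark matches, on either strand, to a GC box (GGGCGG) or a SMAD site (CAGAC).
Mfap2, chr4:141010174-141010417: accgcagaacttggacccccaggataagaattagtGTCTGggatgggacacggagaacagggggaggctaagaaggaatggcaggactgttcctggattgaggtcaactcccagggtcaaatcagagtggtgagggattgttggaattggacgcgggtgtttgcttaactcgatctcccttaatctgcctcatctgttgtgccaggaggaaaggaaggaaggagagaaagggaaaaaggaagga
Fbln5, chr12:101819120-101819369: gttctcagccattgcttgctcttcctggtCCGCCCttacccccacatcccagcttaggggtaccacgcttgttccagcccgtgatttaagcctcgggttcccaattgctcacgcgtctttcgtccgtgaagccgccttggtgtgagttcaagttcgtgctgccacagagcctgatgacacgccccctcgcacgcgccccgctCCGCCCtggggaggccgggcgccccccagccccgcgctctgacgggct
Efemp2, chr19:5473696-5473945: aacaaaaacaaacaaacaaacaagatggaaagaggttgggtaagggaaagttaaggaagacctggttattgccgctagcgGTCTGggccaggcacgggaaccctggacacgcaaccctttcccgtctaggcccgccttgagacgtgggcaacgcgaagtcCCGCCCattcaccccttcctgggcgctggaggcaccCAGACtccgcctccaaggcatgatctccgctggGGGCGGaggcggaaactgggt
The Mfap2 stretch holds 51.2% G and C and 1 SMAD match but no GC box, the Fbln5 stretch 65.2% G and C and 2 GC boxes, and the Efemp2 stretch 59.2% G and C, 2 GC boxes and 2 SMAD matches. Over all 32851 RefSeq promoter windows, 32.7% held a GC box and 42.2% a SMAD match. A TATA box (TATAAA, in 12.4% of windows) and an AP-1 site (TGANTCA, in 6.75%) occurred in 0 of the 12 windows of the 6 genes with an entry. The 3 genes have further RefSeq windows at other starts, where the matches differ: a second Mfap2 window holds 68.8% G and C, 2 GC boxes and 0 SMAD matches, a second Fbln5 window 0 GC boxes and 2 SMAD matches, and the other Efemp2 windows 5 GC boxes and 0 SMAD matches each. Eln, Mfap4, Lox and Loxl1 had no entry. With 1 lowered gene shown and matches that change with the window, a difference from the adaptors cannot be tested, and the matches describe letters only.

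Related genes of the same families and of fiber processing were compared through lists chosen with earlier results of these data known. Of 48 genes, 44 were tested, 3 were lower and 1 was higher by edgeR, and their median log2 fold change was -0.09. These counts changed with the method and the lungs used. Among 13 tested relatives, Ltbp2, a microfibril protein, was at 236, 228 and 234 CPM in R/R and 281, 326 and 274 CPM in WT lungs, without overlap (log2 fold change -0.34, SE 0.07, adjusted p = 0.0402). Loxl4, another lysyl oxidase, was higher, at 9.21, 5.86 and 8.07 CPM in R/R against 4.25, 3.59 and 4.57 CPM in WT lungs (log2 fold change 0.90, SE 0.20, adjusted p = 0.0447). Ltbp2 lost its call without any of R/R 1, R/R 2, R/R 3, WT 1 or WT 2 (adjusted p 0.0883 to 0.157), and Loxl4 lost it without R/R 1, R/R 3, WT 1 or WT 2 (0.122 to 0.158) and in limma-voom with all 6 lungs (0.0620).

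Among 17 tested genes of TGF-β and of microfibril and elastin processing, Adamts17 was lower. This metalloprotease gene, known for a part in microfibril biology, had 17.9, 14.1 and 13.0 CPM in R/R and 41.8, 57.1 and 22.5 CPM in WT lungs. Its log2 fold change was -1.43 (SE 0.26, adjusted p = 0.0238), about the size seen for Mfap4, with WT 3 nearest to the R/R lungs. The call was lost without R/R 2, R/R 3, WT 1 or WT 2 (0.0512 to 0.117) and in limma-voom with all 6 lungs (0.0589). Adamts10, its close relative, had a log2 fold change of -0.37 with an adjusted p of 0.0575. Among 14 tested elastases and inhibitors, Mmp14, a membrane-bound matrix metalloproteinase, was lower (log2 fold change -0.34, SE 0.07, adjusted p = 0.0432), and it lost the call without R/R 1, R/R 2, R/R 3, WT 1 or WT 2 (0.0627 to 0.165). Timp1, a metalloproteinase inhibitor, had a log2 fold change of 0.90 with an adjusted p of 0.145. The neutrophil elastase gene Elane and Mmp7 had too few counts to be tested.

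**Figure D5:**
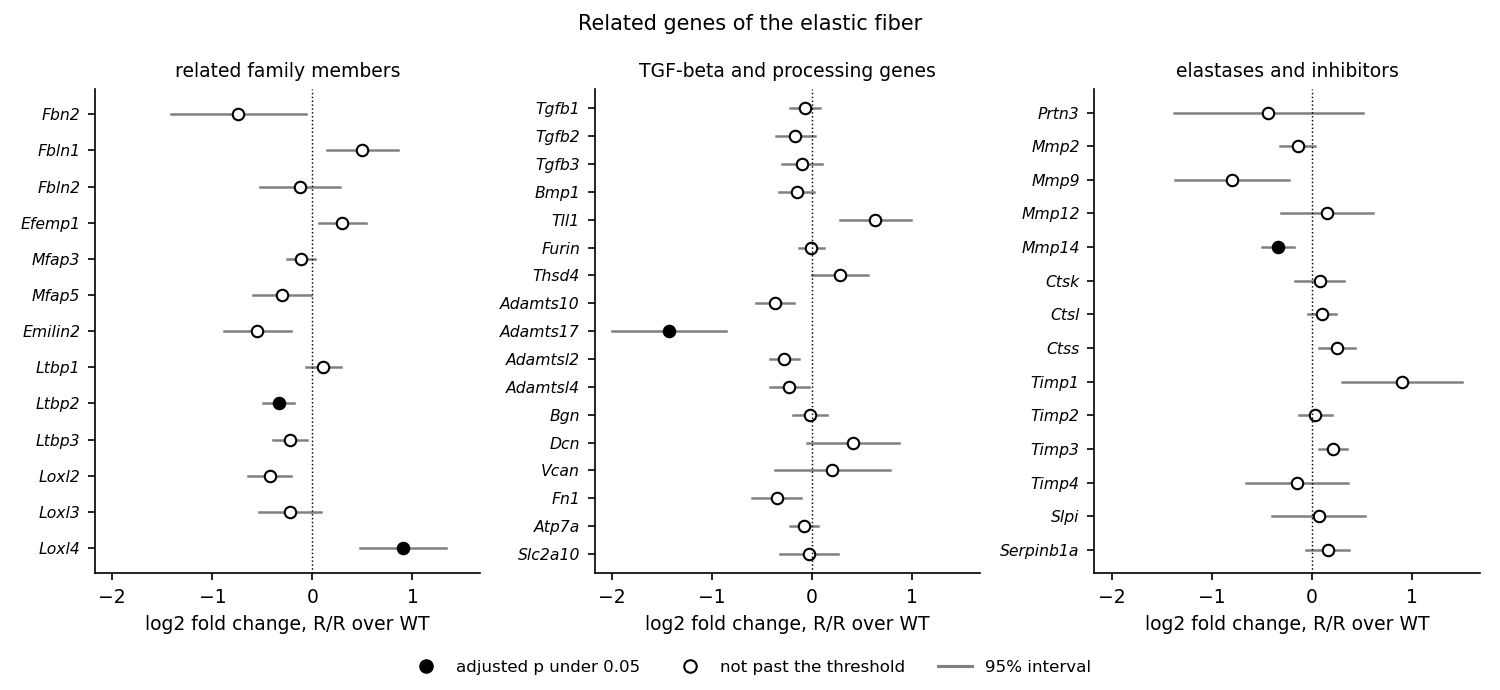
Log2 fold change, R/R over WT, with 95% intervals for the 44 tested related genes in 3 lists. Filled points, adjusted p under 0.05, are Ltbp2 and Loxl4 (left), Adamts17 (middle) and Mmp14 (right).

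Markers of cell types that make or border elastic fibers were measured in the same fit. Of the 8 smooth muscle and myofibroblast markers, 6 had negative and 2 positive log2 fold changes, with a median of -0.14. From this list edgeR called Hhip, a hedgehog-binding protein, which was higher (log2 fold change 0.41, adjusted p = 0.0169). Des, the intermediate filament of muscle, had -0.25 (adjusted p = 0.0668 by edgeR and 0.0234 by DESeq2). The summed level of this list overlapped between R/R (538 to 643 CPM) and WT (559 to 749 CPM). All 5 pericyte markers had negative log2 fold changes. Pdgfrb, a receptor gene of this list, was lower (log2 fold change -0.37, adjusted p = 0.0269), and Notch3 had -0.28 (adjusted p = 0.0558). The summed level of the pericyte list was 676 to 707 CPM in R/R and 803 to 916 CPM in WT lungs, without overlap. Of the 17 tested markers of alveolar fibroblasts, adventitial fibroblasts and endothelium, edgeR called 0, DESeq2 2 and limma-voom 1. At an unadjusted edgeR p under 0.05, 4 were lower and 2 higher. The lowest adjusted p were those of Npnt (0.0575) and Fgfr4 (0.167) for alveolar fibroblasts, Col14a1 (0.154) and Clec3b (0.348) for adventitial fibroblasts, and Cdh5 (0.350) and Kdr (0.483) for endothelium. Their summed levels overlapped between the genotypes for each of these 3 cell types, with 4079 to 5049 against 4906 to 5189 CPM for alveolar fibroblasts. With a lung left out, Pdgfrb was called only without WT 3 (adjusted p = 0.00458, otherwise 0.0634 to 0.112), and Hhip was not called without R/R 2, WT 1 or WT 2 (0.0551 to 0.0653).

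Markers of other cell types also differed between the genotypes. All 6 mesothelial markers had positive log2 fold changes, with Lrrn4 called (1.01, adjusted p = 0.0124) and Upk3b not (0.83, adjusted p = 0.0995), and the summed level was 102 to 178 CPM in R/R and 65.5 to 111 CPM in WT lungs. For all 6 lymphocyte markers every R/R lung lay below every WT lung, with Ms4a1 and Cd79a among those called (64.1 to 86.2 against 124 to 150 CPM summed). Of the 4 macrophage markers, Chil3 (0.68) and Mrc1 (0.42) were higher (719 to 816 against 445 to 622 CPM summed). Of the 5 alveolar type 1 markers, Aqp5 was higher by 0.27 (adjusted p = 0.0459), and Hopx had 0.32 (adjusted p = 0.0773). The median log2 fold change of this list was 0.02 and the lowest -0.04. Of 14 tested markers of alveolar type 2 cells, airway epithelium and cardiac muscle, edgeR called 0, DESeq2 1 and limma-voom 0. At an unadjusted edgeR p under 0.05, 3 cardiac markers were lower and 3 alveolar type 2 markers higher. All 5 alveolar type 2 markers had positive log2 fold changes (0.05 to 0.27). Their summed level was 21730 to 22670 CPM in R/R and 16890 to 20940 CPM in WT lungs, without overlap. All 5 tested cardiac markers had negative log2 fold changes (-1.98 to -0.99), and airway markers went both ways. The lowest adjusted p were those of Sftpa1 (0.251) and Sftpc (0.271), of Scgb1a1 (0.398) and Scgb3a2 (0.489), and of Myl4 (0.277) and Sln (0.2815). Cardiac markers summed to 16.6, 34.5 and 61.7 CPM in R/R and 104, 181 and 13.7 CPM in WT lungs, so that WT 3 was the lowest and WT 2, which had the most Eln and Mfap4, the highest of the 6. Among WT lungs, Mfap4 had the same order as the cardiac sum (1620, 1274 and 913 CPM in WT 2, WT 1 and WT 3). Eln had another order, with 1170 CPM in WT 3 and 1140 CPM in WT 1. R/R 1, with the lowest cardiac sum in R/R, had the least Mfap4 (429 CPM) and the most Eln (817 CPM) there. R/R 3, with the highest cardiac sum in R/R, had 485 CPM of Mfap4, and R/R 2 had 494 CPM. Without WT 3 all 5 tested cardiac markers were called as lower in R/R. Ms4a1 was called with each lung left out, while Chil3, Mrc1 and Aqp5 were called only without WT 3 (adjusted p at most 0.0298, otherwise 0.0534 to 0.198), Lrrn4 not without R/R 2 or WT 1 (0.0700 and 0.0567), and Cd79a only without R/R 1 or WT 3 (otherwise 0.0643 to 0.198). With all 6 lungs, Mrc1 also missed the threshold in limma-voom (0.0506), without TMM (0.0516) and with a filter of 1 CPM (0.0533), and Cd79a in limma-voom (0.0511) and with that filter (0.0535). Markers of cartilage, which is rich in matrix genes, reached at most 12 counts in a lung and those of thymus at most 7. The part that pericytes, mesothelium, lymphocytes, macrophages or cardiac muscle in the tissue piece may have in the elastic fiber differences was not tested.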

How the data were processed

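RNA of lung tissue from 3 R/R and 3 WT mice was sequenced as 150 bp read pairs. For this the supplement speaks of lung tissue samples and does not name the part of the lung taken. The study names littermates and biological replicates, and the labels gave each lung its group and replicate number. The labels name an RNeasy kit for RNA extraction and the supplement Trizol. HISAT2 2.1.0 was the aligner and mm10 (GRCm38) the genome. The authors deposited counts per gene from featureCounts 2.0.1 with GENCODE M25, unnormalized and with no use of strand although the supplement describes stranded libraries. The last of the 6 deposited columns is recorded as an estimated count because of how the table's comment line is read, although its values are whole numbers like the others. Nothing was rounded. The exon length used for RPKM, another deposited column, is the authors' value per gene. GENCODE M21 gave symbols for 55141 of 56262 identifiers. Calculations used R 4.3.3 with edgeR 4.0.16: filterByExpr (minimum count 10, total 15), TMM, glmQLFit and glmQLFTest, and Benjamini-Hochberg adjustment over 17120 genes at 0.05. CPM of single genes use the TMM-scaled library total, with a prior count of 0.5 on the log2 scale. Summed CPM of marker lists and the CPM of 3 counts use the library total without TMM. Alternatives were DESeq2 1.42.0, limma-voom (limma 3.58.1), no TMM, DESeq2 size factors, other filters, the replicate block and each lung left out. The fits were tested on simulated data. No 2 libraries agreed within sampling noise. Counting intervals and the floor of 3 counts cover counting error only. All 10 genes are named, and from each related list the called genes and the 2 with the lowest p. A called marker gene is not reported here. The genes and lists were chosen with earlier results of these data known.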

Additional observations from a re-analysis of the deposited data

How the results depend on the processing

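With all 6 lungs, the count of elastic fiber genes called stayed at 4 to 6 over the methods, scalings and filters, always with Eln, Fbn1, Mfap2 and Mfap4 among them, and ranged from 1 to 5 with 1 lung left out. DESeq2 added Loxl1 and the unfiltered fit Lox and Loxl1. Deviations of same-numbered lungs over all tested genes were not correlated (-0.01, -0.004 and -0.01), which cannot settle whether the lungs were paired. The labels give replicate numbers but no pairing, so the replicate block, which called 5 with Lox added, is not read as a paired analysis. Related genes called numbered 4, against 11 with DESeq2, 2 with limma-voom, 20 with no filter, 10 with the replicate block and 1 to 10 with a lung left out. Marker genes numbered 9, against 18 with DESeq2, 33 with no filter and 2 to 26 with a lung left out. All genes called numbered 300, against 541 with DESeq2, 1109 with no filter, 446 with the replicate block and 65 to 621 with a lung left out. Fits with a lung left out turned the sign of Efemp2 (-0.07 to 0.047) and Emilin1 (-0.10 to 0.02), neither called in any fit. Without a filter, the prior degrees of freedom of the edgeR fit became infinite (7.66 with it). The cause of these changes was not tested. With 3 lungs a group, an edgeR p-value sets the genotype difference against a spread between these lungs, estimated with information shared across genes.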
